A study of Macaca mulatta and Mus musculus and Rattus norvegicus with 12 samples.

Results

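Mouse calvaria, the bony roof of the skull, was compared with mouse tibia (a long bone of the leg) across all mouse genes that could be measured. Genes were kept when 10 or more reads had been counted in at least 2 of the 4 mouse libraries, which left 15563 of 38639 rows naming a gene, of which 22358 had a read in some library. The rows just inside this limit, with exactly 10 reads in their second-highest library, numbered 186, and the rows just outside, with 9, numbered 219. Of the tested genes 15174 reached 10 reads in a library of each site, 119 only in calvaria and 270 only in tibia. The 4 libraries belong to a series of 12 that also covers rat and rhesus macaque, and 7905 of the mouse genes have symbols missing from the rat or the macaque table. All were prepared from poly(A)+ RNA of bone enriched for osteocytes from C57BL6 mice aged 4 months, and the study's methods give the animals as female. Calvaria was sampled as the pools M4 and M8 and tibia as the pools M5 and M7, each of 3 mice. No treatment or genetic change was applied to either site. Sutures and diploe were cut away from the skull, marrow was spun out of the tibia, periosteum was scraped off and both bones were digested briefly with collagenase, so the sites did not share every step of preparation. Skull and leg bones came from the same animals according to the methods, but neither they nor the labels name which pools form pairs. Reads of sex-linked genes, given below, set M8 apart from both tibia pools. All 4 libraries were run on the same sequencing lane.

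Osteocytes are the cells buried in bone matrix. They sense load, secrete sclerostin (the product of Sost) to restrain bone formation through the Wnt pathway, and release factors that act on mineral and phosphate. Long bones form through a cartilage template in the limb, which is patterned by Hox, T-box and Pitx transcription factors, whereas most of the skull vault forms directly from mesenchyme of the head, where Zic, Alx and En factors act and Hox genes are largely silent. Differences between the sites can therefore concern the identity of the cells as well as their activity. In bulk RNA of this kind, fewer cells of a type and less RNA per cell cannot be told apart. The p-values below set the difference between the sites against the spread between pools of a site, estimated with help from all tested genes. For calvaria this spread is that between M4 and M8.

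Reads counted on named genes ranged from 13934813 (M8) to 16826535 (M5), and the tested genes held between 99.77% (M8) and 99.90% (M7) of them. Levels are given as normalized CPM, reads scaled to a common library total after TMM factors, which lay between 0.944 (M8) and 1.05 (M5). One calvaria library stood apart from its label. Xist, the RNA that silences an X chromosome in female cells, had 11106 reads in M4, 15771 in M5 and 12083 in M7 but 2 in M8. The Y-linked genes Ddx3y, Eif2s3y, Uty and Kdm5d had 1049, 512, 200 and 98 reads in M8 and none in the other libraries. M8 therefore went against the sex that the methods give, whereas M4 and both tibia pools did not. By these reads M8 did not come from the same animals as M5 or M7. Counting genes of at least 5 CPM in the libraries on the higher side, those whose CPM lay 16-fold or more below every other library numbered 29 in M8 and 0 in M4, M5 and M7. Genes 16-fold or more above every other library numbered 7 in M8, 1 in M4 (Sfrp2) and 0 in the tibia pools. Whether the animals of M8 differed in strain or in another way from the rest was not tested. Across genes, the Pearson correlation of log2 CPM was 0.914 between the calvaria pools and 0.977 between the tibia pools, and M4 was closer to the tibia pools (0.937 and 0.941) than to M8. For these reasons the calvaria pools are given separately throughout, each as the difference of its log2 CPM from the mean of the 2 tibia libraries.

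Most called genes were higher in tibia, among them 6 Hox genes, the cartilage genes Prg4 and Cytl1 and the osteocyte gene Dmp1. With all 4 libraries, edgeR's quasi-likelihood test called 29 genes (0.186% of those tested) with the study's thresholds, an adjusted p below 0.2 together with more than a 1.1-fold difference. Only 2 were higher in calvaria (0.0129%), namely Myh8 and En1, and 27 were higher in tibia (0.173%). The study filtered genes in another way and does not name its edgeR test, so its calls need not match. Its genes shared across species include Sost, Dkk1, Mepe and Zic1, which this test did not call. For all 29 the 2 libraries of one site lay above the 2 of the other, and both calvaria pools lay more than 2-fold from the tibia mean. Across all tested genes the libraries did not overlap with calvaria higher for 20.1% and with tibia higher for 20.8%. The counts without overlap given for each list below are to be read beside these shares. Of the 27 tibia genes 16 reached 10 reads in both sites, and the other 11 were kept through the tibia alone, as were both calvaria genes through the calvaria alone. With edgeR's exact test, an alternative that yields smaller p-values here, 143 genes were higher in calvaria (0.919%) and 413 in tibia (2.65%). Unadjusted p-values under 0.05 numbered 1232 in the quasi-likelihood test, of which 783 were higher in tibia. Many genes fall under this limit without any difference between the sites, so 1232 is not a count of differing genes. The count of calls depended strongly on single libraries. Without M8 the test called 3260 genes, and calvaria was higher for 1636. Without M4 the count was 7305, with 3463 higher in calvaria, and in both of these fits the spread rests on the tibia pair and the lone calvaria pool is assumed to vary alike. Without M5 and without M7 the counts were 3 and 4, none higher in calvaria. All 29 genes were called again in the same direction without M4 and without M8, but only Clec3a, Cytl1 and Hoxa10 were without M5 or without M7.

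**Figure D1:**
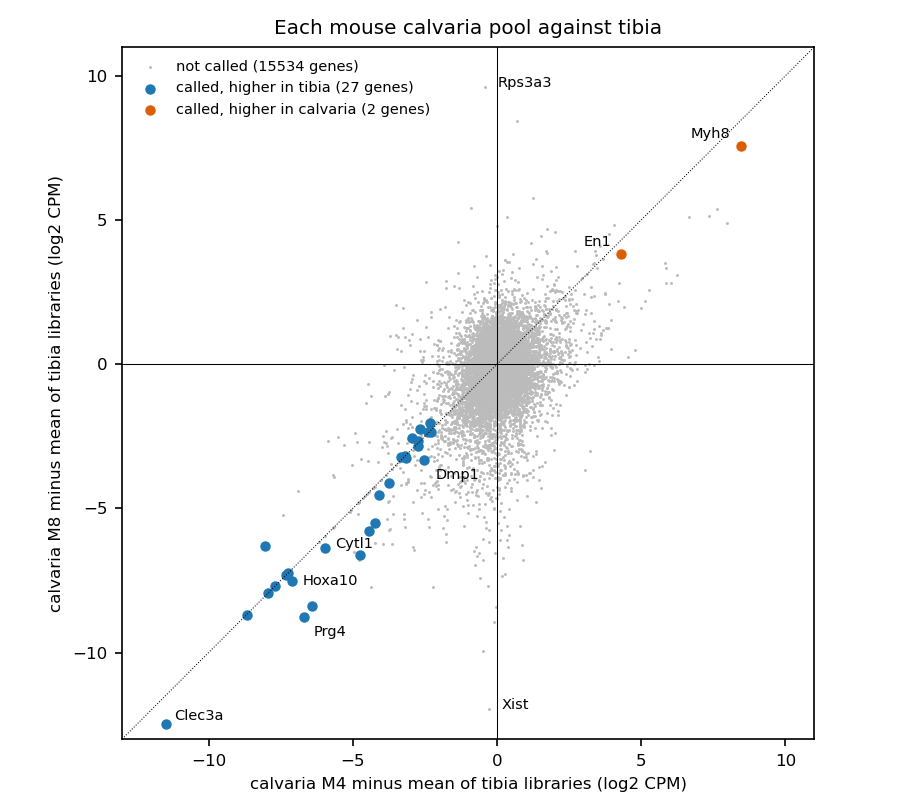
Each point is a mouse gene, with the difference of log2 CPM (1 read added) between calvaria M4 and the mean of the tibia libraries on the horizontal axis and the same for calvaria M8 on the vertical axis. The 29 called genes differ from tibia in the same direction in both pools, with Prg4 furthest from the dotted line of equal differences (M8 minus M4, -2.06 log2 units), whereas Xist and Rps3a3 differ from tibia in M8 alone.

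Taken one at a time, the calvaria pools differed from tibia to different extents. M4 lay more than 2-fold above the tibia mean for 913 genes (5.87%) and below it for 843 (5.42%). M8 lay above it for 1141 genes (7.33%) and below it for 2153 (13.8%). Among the 9477 genes with a mean of 10 CPM or more, the pools M4 and M8 were at least 2-fold apart for 1412, against 62 for M5 and M7. The median absolute log2 difference over these genes was 0.40 between the calvaria pools and 0.14 between the tibia pools. Both calvaria pools were at least 2-fold above the tibia mean for 37 of them and below it for 140, and they lay on opposite sides for 21, with M4 above and M8 below in 19. The median absolute difference of M4 from the tibia mean was 0.23, smaller than that between M4 and M8.

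Every tested Hox gene was higher in tibia. Hox genes encode homeodomain transcription factors that give cells their position along the body and limb axes. Of 39 listed Hox genes 23 were tested, and for all 23 each tibia library exceeded each calvaria library, although only 8 reached 10 reads in both sites. The others were kept through the tibia alone, so their direction follows largely from the filter. Of the 23 the quasi-likelihood test called 6 and the exact test 19, against 0.173% and 2.65% of all genes in that direction. With genes lacking calvaria reads set to the limit of 3 reads, the median log2 fold change (calvaria against tibia, negative where tibia is higher) was -3.33, beside 0.046 over all tested genes. Without that limit the fitted median was -3.94, and it moved to -2.54 when 10 reads were required in a library of each site. The median differences from tibia were -3.84 in M4 and -4.11 in M8, which the many members at or near 0 reads in calvaria limit. The summed level of the 39 listed genes was 22.9 CPM in M4 and 36.8 in M8 against 267 in M5 and 270.0 in M7. Of the tested members 13 were higher in M8 than in M4 and 5 lower.

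The Hoxc cluster was almost without reads in calvaria. Its 6 tested genes lie on chromosome 15 between 102966796 and 103036852 (GRCm38, GENCODE vM21). The 9 listed Hoxc genes, tested or not, together had 4 reads in M4 and 7 in M8 against 1463 in M5 and 1321 in M7. Hoxc9 had no reads in M4 or M8 and 471 and 398 in M5 and M7, so that tibia was higher at least 128-fold (adjusted p = 0.0781, edgeR's quasi-likelihood test). Hoxc10, also without calvaria reads, had 272 in M5 and 239 in M7, so that tibia was higher at least 75.3-fold (adjusted p = 0.121, same test). Hoxc8 had 3 reads in M4, none in M8, 366 in M5 and 342 in M7, a ratio of 209 with a 95% exact interval of 71.4 to 1018 that covers counting error only (adjusted p = 0.121). No library of calvaria came near a library of tibia in these genes. Named after their values were seen, as are the other uncalled Hox genes below, Hoxc6 (0, 3, 158 and 200 reads in M4, M8, M5 and M7), Hoxc4 (0, 4, 144 and 109) and Hoxc5 (0, 0, 30 and 27) were called by the exact test alone, with adjusted p of 0.244, 0.295 and 0.323 in edgeR's quasi-likelihood test.

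In the Hoxa cluster the called genes were Hoxa7, Hoxa10 and Hoxa11, of which the last pair pattern the limb. Hoxa10 (chromosome 6, 52231197 to 52240854) had 0.322 and 0.229 CPM in M4 and M8 and 51.9 and 55.3 CPM in M5 and M7. Its log2 fold change was -7.55 ± 0.31 (standard error, adjusted p = 0.0133, by edgeR's quasi-likelihood test). The call held with each library left out. Hoxa11 had no reads in calvaria and 282 and 167 in M5 and M7, so that tibia was higher at least 64.9-fold (adjusted p = 0.121). Both tibia pools thus expressed these genes, while in calvaria they stood at or near 0. Hoxa7 was present in both sites, with 23 and 21 reads in M4 and M8 against 283 and 219 in M5 and M7 (log2 fold change -3.33 ± 0.31, adjusted p = 0.121). Hoxa9 had 2.06, 4.80, 22.1 and 24.3 CPM in M4, M8, M5 and M7 and Hoxa5 0.90, 1.83, 13.7 and 13.2 CPM, with adjusted p of 0.288 and 0.244 in edgeR's quasi-likelihood test. Hoxa4 gave a smaller difference, at 0.643, 1.30, 1.47 and 3.49 CPM in M4, M8, M5 and M7. The noncoding RNA Hoxa11os, which overlaps Hoxa11, had no reads in calvaria and 198 and 127 in M5 and M7, so that tibia was higher at least 47.2-fold (adjusted p = 0.143). Reads were counted without strand, so Hoxa11 and Hoxa11os cannot be told apart where they overlap.

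The Hoxb and Hoxd clusters held no gene called by the quasi-likelihood test, and the exact test called 5 of 7 tested Hoxb genes and both tested Hoxd genes. Hoxb4, which blood progenitors also express, had 11.8 and 20.5 CPM in M4 and M8 and 22.9 and 23.2 CPM in M5 and M7, the Hox gene with the smallest difference (log2 fold change -0.52 ± 0.32, adjusted p = 0.734). Its level in M8 lay close to the tibia libraries. Hoxb6 and Hoxb7 were nearly absent from calvaria, with 3 and 0 reads and with no reads in M4 and M8, against 62 and 47 reads and 29 and 20 reads in M5 and M7. Hoxd8 had 2.19 and 0.457 CPM in M4 and M8 and 9.56 and 9.98 CPM in M5 and M7 (log2 fold change -2.86 ± 0.71, adjusted p = 0.438). Summed over a cluster, reads in M4, M8, M5 and M7 were 89, 139, 2275 and 1873 for Hoxa, 224, 327, 744 and 564 for Hoxb, and 39, 10, 241 and 190 for Hoxd.

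**Figure D2:**
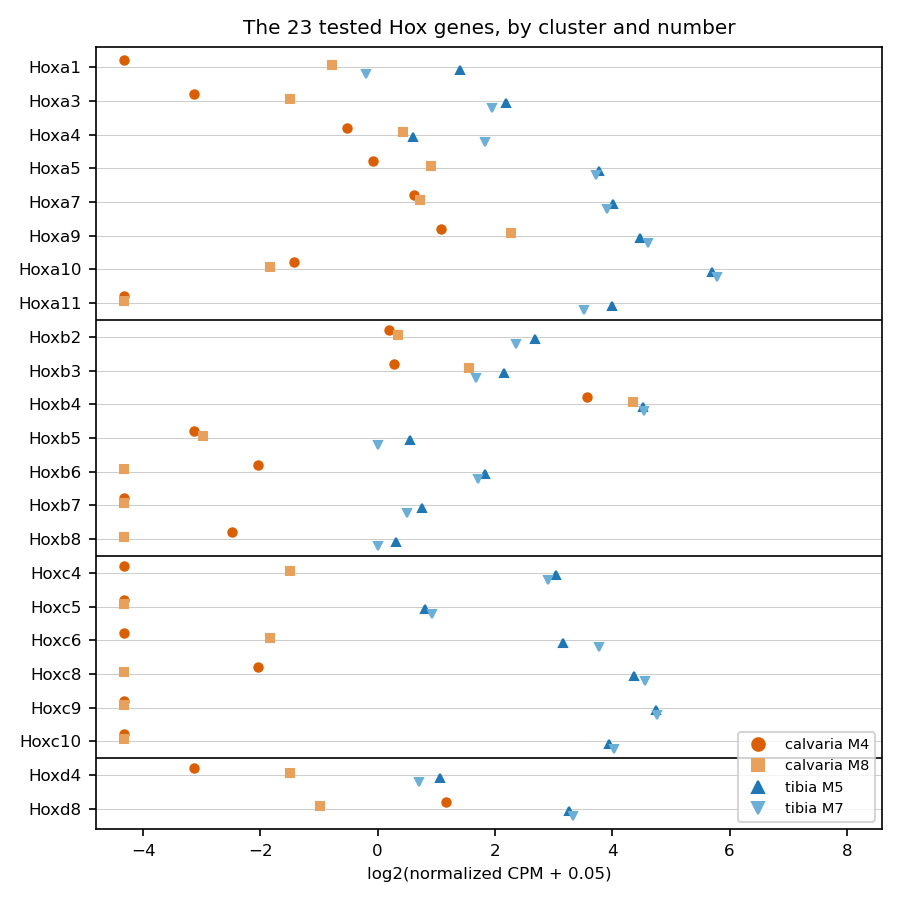
The level of each tested Hox gene in the 4 libraries is plotted as log2 of normalized CPM with 0.05 added, by cluster and number. In every row both tibia libraries lie to the right of both calvaria libraries, with the widest gaps in the Hoxc cluster and at Hoxa10 and Hoxa11.

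Other transcription factors of the limb were less uniform. None of the 18 tested of 23 listed was called by the quasi-likelihood test, the exact test called 7 higher in tibia and 1 higher in calvaria, and the median difference from tibia was -0.71 in M4 and -2.13 in M8. Prrx1, a mesenchymal limb and head factor and the most abundant by CPM, had 387 and 84.2 CPM in M4 and M8 and 165 and 168 CPM in M5 and M7, so that the calvaria pools lay on either side of tibia. Irx5 had 116 and 40.2 CPM in M4 and M8 against 193 and 313 CPM in M5 and M7 (log2 fold change -1.69 ± 0.56, adjusted p = 0.579). The genes that follow were picked after their values were seen. Pitx1, which specifies the hindlimb, had no reads in M4 or M8 and 93 and 59 in M5 and M7, at least 22.0-fold higher in tibia, with an adjusted p of 0.244 that misses the threshold in edgeR's quasi-likelihood test and a call in the exact test. Tbx4, a hindlimb T-box factor, had 0 and 2 reads in M4 and M8 against 59 and 46. Tbx18 had 1.48 and 0.762 CPM in M4 and M8 and 11.8 and 14.6 CPM in M5 and M7 (adjusted p = 0.221). All of these separated the sites, which may follow from how they were picked. In the whole list 11 of 18 were higher in both tibia libraries and 1 in both calvaria libraries. Over all tested genes these shares were 20.8% and 20.1%, respectively. Members above the tibia mean numbered 6 in M4 and 1 in M8, and those below it 12 and 17. Shox2, a stature and limb factor also picked after its values were seen, had 74.4 CPM in M4, 3.51 in M8, 244 in M5 and 265 in M7, so that both calvaria pools were below tibia and M8 was the lowest.

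Among transcription factors of the head, 9 of 19 tested members were higher in both calvaria libraries and 5 higher in both tibia libraries. Over all tested genes these shares were 20.1% and 20.8%. En1, an engrailed homeobox factor of the skull vault and hindbrain boundary, was the member called by the quasi-likelihood test among the 19, of 31 listed. It had 171 and 102 reads in M4 and M8 and 9 and 7 in M5 and M7, a log2 fold change of 4.23 ± 0.44 (adjusted p = 0.143). Both calvaria pools lay far above both tibia pools. The exact test called 8 members higher in calvaria and none higher in tibia, beside 0.919% of all genes. Zic1, a zinc-finger factor of dorsal head tissue, had 201 reads in M4, 35 in M8 and none in M5 or M7, at least 41.6-fold higher in calvaria, and its adjusted p of 0.373 misses the threshold in edgeR's quasi-likelihood test. Picked after their values were seen, Zic4 (259, 25, 0 and 0 reads in M4, M8, M5 and M7), Zic2 (271, 49, 2 and 0 reads) and Six2 (139, 40, 1 and 0 reads) had the same order. In each of these 4 genes M4 exceeded M8 and both exceeded tibia. On the tibia side, picked in the same way, Foxc1 had 1008 and 506 reads in M4 and M8 and 2003 and 1390 in M5 and M7. The median difference of the list from tibia was 1.25 in M4 and -0.33 in M8, the fitted median turned from 0.67 to -0.36 without M4, and 18 of 19 members were lower in M8 than in M4. Some members, likewise picked, were present at both sites, among them Dlx5 (106, 27.6, 83.6 and 89.2 CPM in M4, M8, M5 and M7) and Twist1 (35.5, 14.6, 11.1 and 13.4 CPM).

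The labelled cell type was checked first by its defining genes, all of which were detected in every library. Osteocyte genes were mostly higher in tibia. Of 17 tested members 11 had each tibia library above each calvaria library and 1 the reverse. The quasi-likelihood test called 1 and the exact test 8, all higher in tibia, and the median difference from tibia was -0.81 in M4 and -1.85 in M8. Dmp1, a matrix protein that promotes mineralization, had 141 and 82.2 CPM in M4 and M8 and 806 and 841 CPM in M5 and M7. Its log2 fold change was -2.88 ± 0.33 (adjusted p = 0.164, edgeR's quasi-likelihood test), with log2 differences from tibia of -2.55 in M4 and -3.32 in M8. Sost had 1304 and 700 CPM in M4 and M8 and 5931 and 8332 CPM in M5 and M7, and although its libraries did not overlap its log2 fold change of -2.83 ± 0.42 had an adjusted p of 0.255 in edgeR's test. The Wnt antagonist Dkk1 had 84.7 and 47.0 CPM in M4 and M8 against 162 and 223 CPM in M5 and M7 (log2 fold change -1.55 ± 0.36, adjusted p = 0.42).

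Mepe and Phex, which act on matrix mineral and phosphate, were also higher in both tibia libraries. Mepe had 299 and 203 CPM in M4 and M8 and 705 and 981 CPM in M5 and M7 (log2 fold change -1.75 ± 0.31, adjusted p = 0.312, edgeR's quasi-likelihood test). Phex, an endopeptidase on the X chromosome whose loss causes phosphate wasting, had 54.9 and 35.7 CPM in M4 and M8 and 116 and 131 CPM in M5 and M7 (log2 fold change -1.45 ± 0.27, adjusted p = 0.331). The exact test called both. Fgf23, the phosphate-lowering hormone, differed from them, with 3.73 and 1.45 CPM in M4 and M8 and 3.22 and 1.37 CPM in M5 and M7, so that the sites overlapped. The atypical chemokine receptor Ackr3, picked after its values were seen, had 179 and 99.3 CPM in M4 and M8 and 637 and 881 CPM in M5 and M7. Over the wider list of 20 tested mineral and phosphate genes, 9 were higher in both tibia libraries and none lower, the quasi-likelihood test called only Dmp1 and the exact test 6, and the median differences were -0.42 in M4 and -1.25 in M8.

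Osteoblast genes, those of the cells that lay down matrix, did not separate the sites. None of 23 tested was called by the quasi-likelihood test, and the exact test called Dlx3 alone, higher in tibia. The sites did not overlap for 4 members, 2 in each direction. The pools disagreed, with a median difference from tibia of 0.59 in M4 and -1.01 in M8, and 22 of 23 members were lower in M8 than in M4. Col1a1, the main collagen chain of bone, had 23033 and 10399 CPM in M4 and M8 and 15209 and 8868 CPM in M5 and M7. Col1a2 had 24714, 10966, 14081 and 11061 CPM in the same order. For both genes M8 fell among the tibia libraries. Alpl, the phosphatase that frees phosphate for mineral, had 429 and 115 CPM in M4 and M8 and 287 and 270 CPM in M5 and M7. Runx2, the master factor of osteoblasts, had similar levels in M4 and tibia, with 153, 101, 140 and 143 CPM in M4, M8, M5 and M7 (log2 fold change -0.15 ± 0.26, adjusted p = 0.884). Bglap, osteocalcin, had 37.0, 16.9, 30.6 and 17.6 CPM in the same order. It shares sequence with its neighbor Bglap2, which had 45.6 CPM in M4, 0.152 in M8, 24.4 in M5 and 23.9 in M7, so the split of reads between the copies is uncertain.

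**Figure D3:**
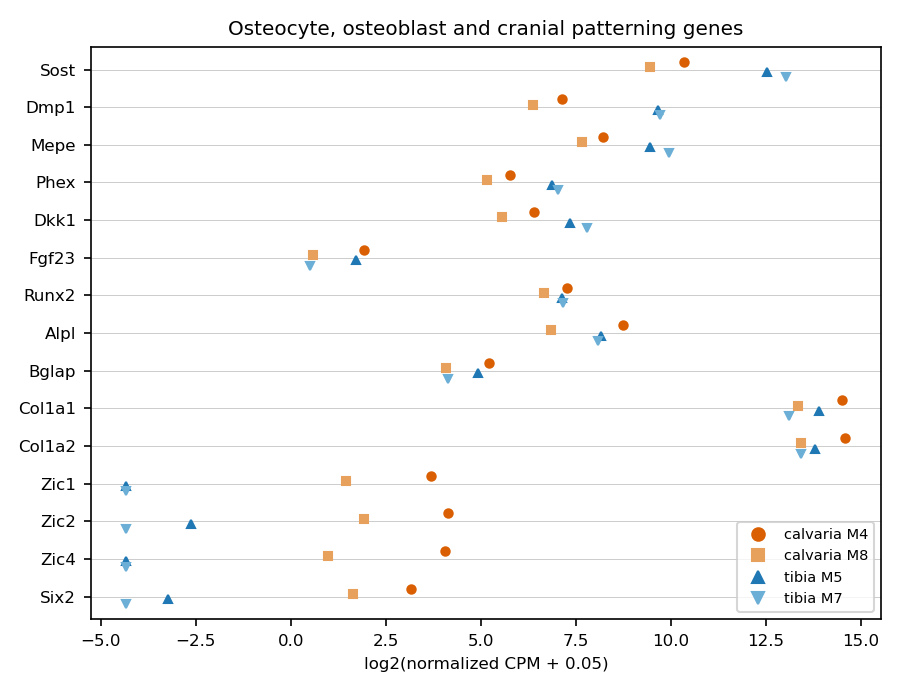
Levels of osteocyte, osteoblast and cranial patterning genes in each library are plotted as log2 of normalized CPM with 0.05 added. Sost, Dmp1, Mepe, Phex and Dkk1 are higher in both tibia libraries, the osteoblast genes overlap between the sites, and Zic1, Zic2, Zic4 and Six2 are at or near 0 in tibia.

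Wnt antagonists were among the tibia genes. Frzb, a secreted frizzled-related protein of joint cartilage, had 2.89 and 1.14 CPM in M4 and M8 and 55.5 and 55.3 CPM in M5 and M7, a log2 fold change of -4.76 ± 0.47 (adjusted p = 0.121, edgeR's quasi-likelihood test). Tpbg, a membrane glycoprotein that inhibits Wnt signaling, had 8.68 and 8.84 CPM in M4 and M8 against 42.9 and 48.1 CPM in M5 and M7 (log2 fold change -2.38 ± 0.21, adjusted p = 0.121). Both genes had nearly equal tibia libraries, far above calvaria. These were the 2 called of 15 tested antagonists, of which the exact test called 5 higher in tibia and 1 higher in calvaria, with median differences of -0.54 in M4 and -1.63 in M8. The member higher in calvaria was Sfrp2, with 189 CPM in M4 but 9.60 in M8, 8.26 in M5 and 8.00 in M7, so that call rests on M4. Among 39 tested Wnt ligands, receptors and targets none was called by the quasi-likelihood test and 1 in each direction by the exact test, and the medians were 0.11 in M4 and -0.86 in M8. Ctnnb1, the intracellular effector of the pathway, had 778 and 581 CPM in M4 and M8 and 1042 and 954 CPM in M5 and M7 (adjusted p = 0.66), and the receptor Ryk 207, 111, 231 and 316 CPM in the same order (adjusted p = 0.671).

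Growth factor families showed 1 quasi-likelihood call. Fgf1, a ligand of all FGF receptors, had 8.75 and 10.7 CPM in M4 and M8 and 39.5 and 48.2 CPM in M5 and M7, a log2 fold change of -2.18 ± 0.24 (adjusted p = 0.16, edgeR's quasi-likelihood test). Both pools were lower than tibia by a similar amount. It was the 1 called of 16 tested FGF ligands and receptors, of which 11 did not overlap with tibia higher, with medians of -0.41 in M4 and -0.74 in M8. None of 23 BMP ligands and antagonists, 10 BMP response genes or 15 genes of the IGF system was called by the quasi-likelihood test. The exact test called 3, 3 and 1 of them, all higher in tibia, beside 2.65% of all tested genes. In the same order 11, 8 and 7 members did not overlap with tibia higher, and 0, 0 and 1 with calvaria higher. Over all tested genes the shares without overlap were 20.8% and 20.1%. For the BMP ligands and antagonists the medians were -0.09 in M4 and -1.57 in M8, and Gdf10, a BMP-related ligand, lay on either side of tibia with 450 and 72.8 CPM in M4 and M8 and 255 and 264 CPM in M5 and M7. BMP response genes had medians of -0.50 and -1.37. Fstl1, a secreted follistatin-like protein of the BMP list, had 298 and 87.3 CPM in M4 and M8 and 272 and 245 CPM in M5 and M7. Id3, an inhibitor of helix-loop-helix factors induced by BMP, had 157 and 123 CPM in M4 and M8 and 314 in both M5 and M7 (log2 fold change -1.17 ± 0.22, adjusted p = 0.331). Its relative Id2 had 150.5 and 98.3 CPM in M4 and M8 against 225 and 226 CPM (adjusted p = 0.563). For the IGF system the medians were -0.17 in M4 and -0.99 in M8, with Igfbp4 at 386, 401, 711 and 570 CPM and Igfbp5 at 509, 278, 771 and 693 CPM in M4, M8, M5 and M7.

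Signals to osteoclasts, mechanosensing genes and imprinted growth genes held no quasi-likelihood call among 12, 19 and 14 tested members. The exact test called 3 osteoclast signals, higher in tibia, and none of the other lists. Cxcl12, a chemokine of stromal and bone cells, had 788.6 and 928 CPM in M4 and M8 and 1888 and 1685 CPM in M5 and M7 (log2 fold change -1.06 ± 0.23, adjusted p = 0.398, edgeR's quasi-likelihood test). Csf1, which osteoclast precursors need, had 170, 88.3, 139 and 149 CPM in M4, M8, M5 and M7, without separation of the sites. The gap junction gene Gja1 had 409 and 218 CPM in M4 and M8 and 493 and 598 CPM in M5 and M7 (adjusted p = 0.661). Integrin Itgb1 was close to even, at 196 in both calvaria pools and 208 and 215 CPM in tibia. The imprinted genes Gnas (604, 716, 749 and 766 CPM) and Grb10 (78.9, 36.6, 59.0 and 56.0 CPM) likewise had no call.

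Most tested cartilage genes were higher in tibia. Of 20 tested cartilage genes 17 were higher in both tibia libraries and 1 lower, the quasi-likelihood test called 2 and the exact test 12, all higher in tibia. The median difference was -1.87 in M4 and -3.22 in M8. Prg4, lubricin, which lubricates joint surfaces, had 294 and 59 reads in M4 and M8 and 33677 and 29993 in M5 and M7. Its log2 fold change was -7.39 ± 0.83 (adjusted p = 0.16, edgeR's quasi-likelihood test). Cytl1, a cytokine-like protein of chondrocytes, had 1.03 and 0.762 CPM in M4 and M8 and 57.1 and 81.2 CPM in M5 and M7 (log2 fold change -6.25 ± 0.35, adjusted p = 0.0401). Clec3a, a lectin found in cartilage that was on none of the lists, had 1 read in M4, none in M8, 6193 in M5 and 5848 in M7, a ratio of 10686 with a 95% exact interval of 1918 to 422096 (adjusted p = 0.0133). These genes were abundant in both tibia pools and nearly absent from both calvaria pools. Picked after their values were seen, Col2a1, the main collagen of cartilage, had 58.5 and 10.4 CPM in M4 and M8 and 593 and 476 CPM in M5 and M7 (adjusted p = 0.398). Sox9, the chondrocyte factor, had 19.4 and 15.5 CPM in M4 and M8 and 45.1 and 50.6 CPM in M5 and M7 (adjusted p = 0.258). Summed over the cartilage list, levels were 785 and 414 CPM in M4 and M8 and 3838 and 3633 CPM in M5 and M7. The part of cartilage attached to the tibia in the other tibia genes was not tested.

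Collagens as a class did not separate the sites. None of 32 tested was called by the quasi-likelihood test, while the exact test called 5 higher in tibia and 1 higher in calvaria. The median differences were 0.52 in M4 and -1.28 in M8. Col3a1, a collagen of soft connective tissue, had 843 CPM in M4, 132 in M8, 80.0 in M5 and 63.9 in M7, the member higher in calvaria by the exact test. Small leucine-rich proteoglycans, which organize collagen fibrils, held no quasi-likelihood call among 15 and 1 exact test call, higher in tibia, with medians of 0.33 and -0.85. Dcn had 1780 and 686 CPM in M4 and M8 and 3463 and 3083 CPM in M5 and M7 (log2 fold change -1.41 ± 0.48, adjusted p = 0.586), whereas Bgn had 1204, 612, 1084 and 1124 CPM in the same order. Matrix proteases and inhibitors numbered 29, with 4 exact test calls, all higher in tibia, 1 quasi-likelihood call, and medians of 0.43 in M4 and -0.56 in M8. This was Htra4, a secreted serine protease, with 7 reads in M4, 1 in M8, 251 in M5 and 193 in M7 (log2 fold change -5.60 ± 0.66, adjusted p = 0.172).

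The remaining called tibia genes, given so that all 29 are named, covered secreted proteins, enzymes and membrane proteins. Anxa8, an annexin that binds membranes in the presence of calcium, had 3.86 and 2.82 CPM in M4 and M8 and 70.5 and 64.6 CPM in M5 and M7 (log2 fold change -4.33 ± 0.27, adjusted p = 0.049, edgeR's quasi-likelihood test). Cxcl14, a chemokine, had 68.6 and 64.7 CPM in M4 and M8 and 483 and 444 CPM in M5 and M7 (log2 fold change -2.80 ± 0.21, adjusted p = 0.0808). Clu, clusterin, an extracellular chaperone, had 142 and 135 CPM in M4 and M8 and 1458 and 1113 CPM in M5 and M7 (log2 fold change -3.21 ± 0.25, adjusted p = 0.10). In Cxcl14 and Clu M4 and M8 were nearly equal, and in all 3 genes both pools lay far below tibia. Nt5e, the ectonucleotidase that produces adenosine, had 8.17 and 7.93 CPM in M4 and M8 and 38.5 and 42.7 CPM in M5 and M7 (adjusted p = 0.121). Mfi2, melanotransferrin, had 0 and 2 reads in M4 and M8 and 297 and 262 in M5 and M7, a ratio of 248 with a 95% exact interval of 68.3 to 2053 (adjusted p = 0.121). Tg, thyroglobulin, had 17.4 and 23.2 CPM in M4 and M8 and 101 and 120 CPM in M5 and M7 (log2 fold change -2.44 ± 0.24, adjusted p = 0.123). Again no calvaria library reached a tibia library. Myoc, myocilin, a secreted glycoprotein of connective tissue and eye, had 3.22 and 1.22 CPM in M4 and M8 and 91.8 and 54.2 CPM in M5 and M7 (log2 fold change -5.02 ± 0.56, adjusted p = 0.16). Fmo2, a flavin monooxygenase, had 2.32 and 3.05 CPM in calvaria and 16.4 and 20.0 CPM in tibia (adjusted p = 0.164), and Fxyd3, a regulator of the sodium pump, had 8, 5, 152 and 102 reads in M4, M8, M5 and M7 (adjusted p = 0.16).

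**Figure D4:**
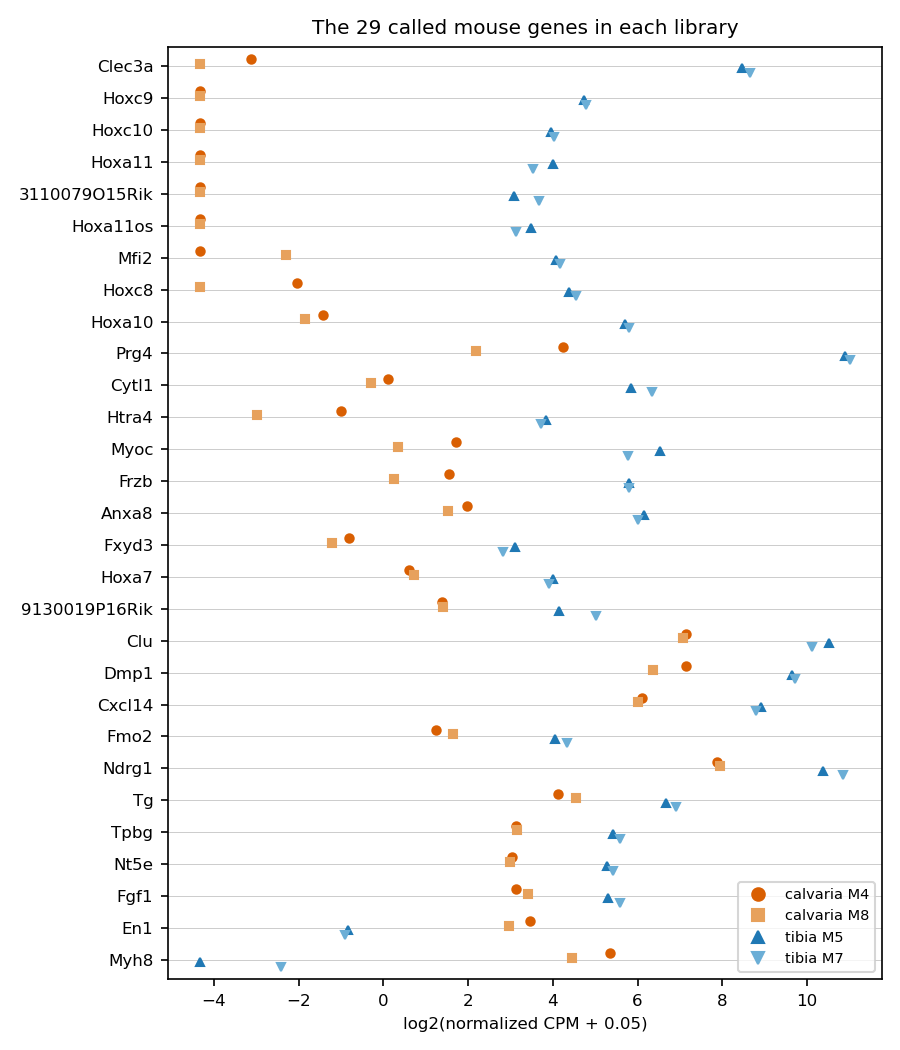
The 29 called genes are plotted in each library as log2 of normalized CPM with 0.05 added, ordered by their fitted fold change from tibia-high (top) to calvaria-high (bottom). The calvaria and tibia symbols do not overlap in any row, and only En1 and Myh8 are higher in calvaria.

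Genes of hypoxia and glycolysis leaned toward tibia in both pools. Of 44 tested 24 were higher in both tibia libraries and 2 lower, the exact test called 9, all higher in tibia, and the medians were -0.41 in M4 and -0.49 in M8. Unlike the bone lists, this one therefore gave nearly the same difference in both calvaria pools. Ndrg1, a protein induced by low oxygen and other stress, was the member called by the quasi-likelihood test, with 235 and 247 CPM in M4 and M8 and 1339 and 1839 CPM in M5 and M7 (log2 fold change -2.72 ± 0.26, adjusted p = 0.121). Bnip3, a mitophagy receptor that low oxygen induces, had 249 and 157 reads in M4 and M8 and 928 and 1065 in M5 and M7 (adjusted p = 0.223) and was picked after its values were seen. Heat shock genes (22 tested) and immediate early genes (25 tested) held no quasi-likelihood call, and the exact test called 1 heat shock gene higher in tibia and 2 immediate early genes in each direction, with medians between -0.42 and 0.15 in the pools. The chaperones Hsp90ab1 (1173, 1144, 1023 and 928 CPM in M4, M8, M5 and M7) and Hspa5 (600, 509, 600 and 524 CPM) differed little. Klf6 (139, 198, 165 and 175 CPM) and Klf2 (149, 94.7, 204 and 188 CPM), early response factors, had no call either.

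Myh8 was the gene with the smallest p-value among those higher in calvaria. It encodes the perinatal myosin heavy chain of skeletal muscle and lies on chromosome 11 from 67277124 to 67308634. It had 630 and 284 reads in M4 and M8, none in M5 and 2 in M7, a ratio of 515 with a 95% exact interval of 142 to 4259 (adjusted p = 0.121, edgeR's quasi-likelihood test). Other muscle genes leaned toward calvaria with overlap between the sites, to an extent that depended on tibia library M5. The fitted median log2 fold change of the muscle list was 0.72 with all libraries, 0.15 without M5 and 2.29 without M7. The median difference of the list from tibia was 1.44 in M4 and 0.96 in M8, with 33 and 28 members above the tibia mean. Of 35 tested skeletal muscle genes, all listed rows of which had reads, 5 were higher in both calvaria libraries and 1 lower. No member was called by the quasi-likelihood test and Des alone by the exact test, higher in calvaria. Summed over the list, levels were 5882 and 3313 CPM in M4 and M8 but 1006 and 4123 CPM in M5 and M7, so that tibia M7 exceeded calvaria M8. Titin (Ttn) had 1078 and 624 CPM in M4 and M8 and 102 and 505 CPM in M5 and M7, and the adult fast myosin Myh1 had 605, 514, 109 and 592 CPM in the same order. The part of muscle left on either bone in Myh8 and in the other muscle genes was not tested.

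Below the threshold on the calvaria side, named after their values were seen, stood genes of bone, blood and connective tissue. Ptprv, a receptor phosphatase of osteoblasts that is also called osteotesticular phosphatase, had 24.1 and 18.7 CPM in M4 and M8 and 4.58 CPM in both M5 and M7 (log2 fold change 2.22 ± 0.27, adjusted p = 0.208, edgeR's quasi-likelihood test). Mir451, an erythroid microRNA gene, had 395 and 626 CPM in M4 and M8 and 104 and 109 CPM in M5 and M7 (adjusted p = 0.223). Both genes separated the sites and were called by the exact test. Tnn, tenascin-W, a matrix protein of periosteum and tendon, had 501 CPM in M4, 87.3 in M8, 8.14 in M5 and 9.16 in M7 (adjusted p = 0.323). Lrrc15, a surface protein of matrix-forming fibroblasts, had 292, 33.3, 3.28 and 4.44 CPM in the same order (adjusted p = 0.393). For Tnn and Lrrc15 both pools exceeded tibia, but M4 exceeded M8 several-fold.

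Neutrophil, erythroid, platelet and cell cycle genes were mostly higher in M8 than in M4. None of the 18 lists of cell type markers held a gene called by the quasi-likelihood test. Neutrophil genes (24 tested) had a median difference from tibia of -0.06 in M4 and 1.13 in M8. Of these 10 did not overlap with calvaria higher, beside 20.1% of all tested genes. S100a8, a granulocyte calcium-binding protein, had 32886 and 39323 CPM in M4 and M8 and 16042 and 21102 CPM in M5 and M7 (log2 fold change 0.96 ± 0.31, adjusted p = 0.577), and its partner S100a9 had 49572, 65857, 31544 and 34184 CPM. These 2 genes were above tibia in both pools. Erythroid genes (18 tested) had medians of -0.31 and 0.98, with the beta globin Hbb-bs at 25238 and 50592 CPM in M4 and M8 and 25214 and 36448 CPM in M5 and M7. Its neighbor Hbb-bt had 7095, 12501, 7446 and 9987 CPM, and reads of such near-identical globin copies may be split between them. Cell cycle genes (36 tested) had medians of -0.18 and 0.76, and all 36 were higher in M8 than in M4. Mki67, a marker of dividing cells, had 356 and 1032 CPM in M4 and M8 and 497 and 509 CPM in M5 and M7, and the topoisomerase Top2a 196, 486, 211 and 218 CPM. Megakaryocyte and platelet genes (17) had medians of -0.03 and 0.85, with the platelet chemokine Pf4 at 418, 501, 291 and 219 CPM and Ppbp at 429, 683, 560 and 416 CPM.

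Exact test calls in the lymphoid and other myeloid lists fell among B cell, T and NK cell, and mast cell and basophil genes. Monocyte and macrophage genes and osteoclast genes held none. Over all tested genes the exact test called 0.919% higher in calvaria and 2.65% higher in tibia. B cell genes (19 tested) had medians of 0.28 in M4 and 0.36 in M8, and the exact test called 3 higher in calvaria and 1 higher in tibia. Among the 19 tested, 9 did not overlap with calvaria higher and 3 with tibia higher. Over all tested genes these shares were 20.1% and 20.8%. The coactivator Pou2af1 had 70.0, 135, 76.0 and 81.4 CPM in M4, M8, M5 and M7 and the B cell factor Ebf1 78.1, 61.0, 82.5 and 94.0 CPM. T and NK cell genes (16 tested) had medians of -0.82 and -0.40, with 5 exact test calls, all higher in tibia. Ccl5, a chemokine of these cells, had 26.4 and 15.9 CPM in M4 and M8 and 64.7 and 54.8 CPM in M5 and M7 (log2 fold change -1.50 ± 0.31, adjusted p = 0.377, edgeR's quasi-likelihood test), whereas the granule protein Nkg7 had 46.4, 91.4, 46.1 and 47.4 CPM. Monocyte and macrophage genes (22 tested) had medians of -0.31 and 0.00068, with Lyz2 at 906, 1713, 1215 and 1150 CPM and Cd74 at 452, 565, 575 and 537 CPM. Mast cell and basophil genes (10 tested) had medians of 0.09 and 0.36, and the exact test called 2, both higher in calvaria. The basophil protease Prss34 had 54.3 and 60.2 CPM in M4 and M8 and 32.1 and 32.5 CPM in M5 and M7 (adjusted p = 0.417), and Hdc, the histamine-forming enzyme, had 63.8, 127, 67.4 and 60.7 CPM. Osteoclast genes (18 tested) had medians of 0.47 and -0.23, and 6 did not overlap with calvaria higher and none with tibia higher. Mmp9 had 1593, 1322, 1269 and 1164 CPM and Car2, which red cells also express, 758, 1645, 1005 and 959 CPM.

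Fat and stromal markers were lower in both calvaria pools. Adipocyte genes (19 tested, no listed row without reads) had medians of -0.93 in M4 and -2.03 in M8. Of these 16 reached 10 reads in both sites, and when that was required the median fitted log2 fold change of the list moved from -1.47 to -0.58. The exact test called 10 of them higher in tibia, 11 did not overlap in that direction and 3 in the other. Fabp4, a fatty acid carrier of adipocytes and vessels, had 495 and 188 CPM in M4 and M8 and 1009 and 886 CPM in M5 and M7 (log2 fold change -1.47 ± 0.48, adjusted p = 0.577, edgeR's quasi-likelihood test). The lipase Lpl had 294, 255, 430 and 257 CPM. Adipoq, the adipocyte hormone adiponectin, was picked after its values were seen and had 13.1 and 8.61 CPM in M4 and M8 and 67.7 and 50.4 CPM in M5 and M7 (adjusted p = 0.221). Marrow stroma genes (14 tested) had medians of -0.85 and -1.07, 12 did not overlap with tibia higher, and 6 were called by the exact test, Cxcl12 among them. Hp, haptoglobin, went against the list with 273, 772, 327 and 318 CPM in M4, M8, M5 and M7. Endothelial genes (24 tested) had medians of -0.26 and -0.60, 16 did not overlap with tibia higher and 4 were called by the exact test. Tibia was higher without overlap for 20.8% of all tested genes. Plvap had 103, 49.5, 117 and 107 CPM and Egfl7 64.6, 43.0, 68.9 and 60.0 CPM. Marrow was removed from the tibia by spinning, and how much of each site's difference lay in cells left behind was not tested.

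Connective tissue lists lay above tibia in M4 and below it in M8. Periosteum genes (12 tested) had medians of 0.88 and -0.90, and tendon and ligament genes (12 tested) 0.35 and -1.45. Ctsk, the collagen-degrading cathepsin of osteoclasts and periosteal cells, had 652 and 217 CPM in M4 and M8 and 407 and 319 CPM in M5 and M7. Tnc, tenascin-C, had 1064 and 372 CPM in M4 and M8 and 760 and 744 CPM in M5 and M7. In both genes the tibia libraries lay between the calvaria pools, whereas Col11a1 was lower in both pools, at 277 and 134 CPM against 615 and 460 CPM (log2 fold change -1.39 ± 0.41, adjusted p = 0.525, edgeR's quasi-likelihood test). Pericyte and smooth muscle genes (15 tested) had medians of -0.38 and -0.67, with Pdgfrb at 165, 63.8, 90.7 and 85.5 CPM and Cspg4 at 49.8, 15.5, 69.5 and 81.7 CPM in M4, M8, M5 and M7. Markers of meninges and dura, which adjoin the skull (11 tested), had medians of 0.28 and 0.52, although 9 were lower in M8 than in M4 and 2 higher. Their summed levels were 1034 and 321 CPM in M4 and M8 and 809 and 905 CPM in M5 and M7. The fitted median log2 fold change moved from 0.20 to 0.07 when 10 reads were required in a library of each site. Of the 11 tested, 6 did not overlap with calvaria higher and 3 with tibia higher, beside 20.1% and 20.8% of all tested genes. Mgp, a mineralization inhibitor, had 716, 66.0, 538 and 642 CPM while Fxyd5 had 266, 233, 217 and 216 CPM. Neuron and glia genes (13 tested) had medians of -0.23 and -0.75, with Mbp, a myelin protein, at 104, 111, 102 and 76.0 CPM in M4, M8, M5 and M7. Keratinocyte and hair genes were near the detection limit, with 7 of 18 tested, 7 listed rows without reads and summed levels between 19.4 and 28.7 CPM. Sfn had 7.98, 2.97, 11.8 and 7.93 CPM and Perp 5.27, 4.73, 5.37 and 7.18 CPM.

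**Figure D5:**
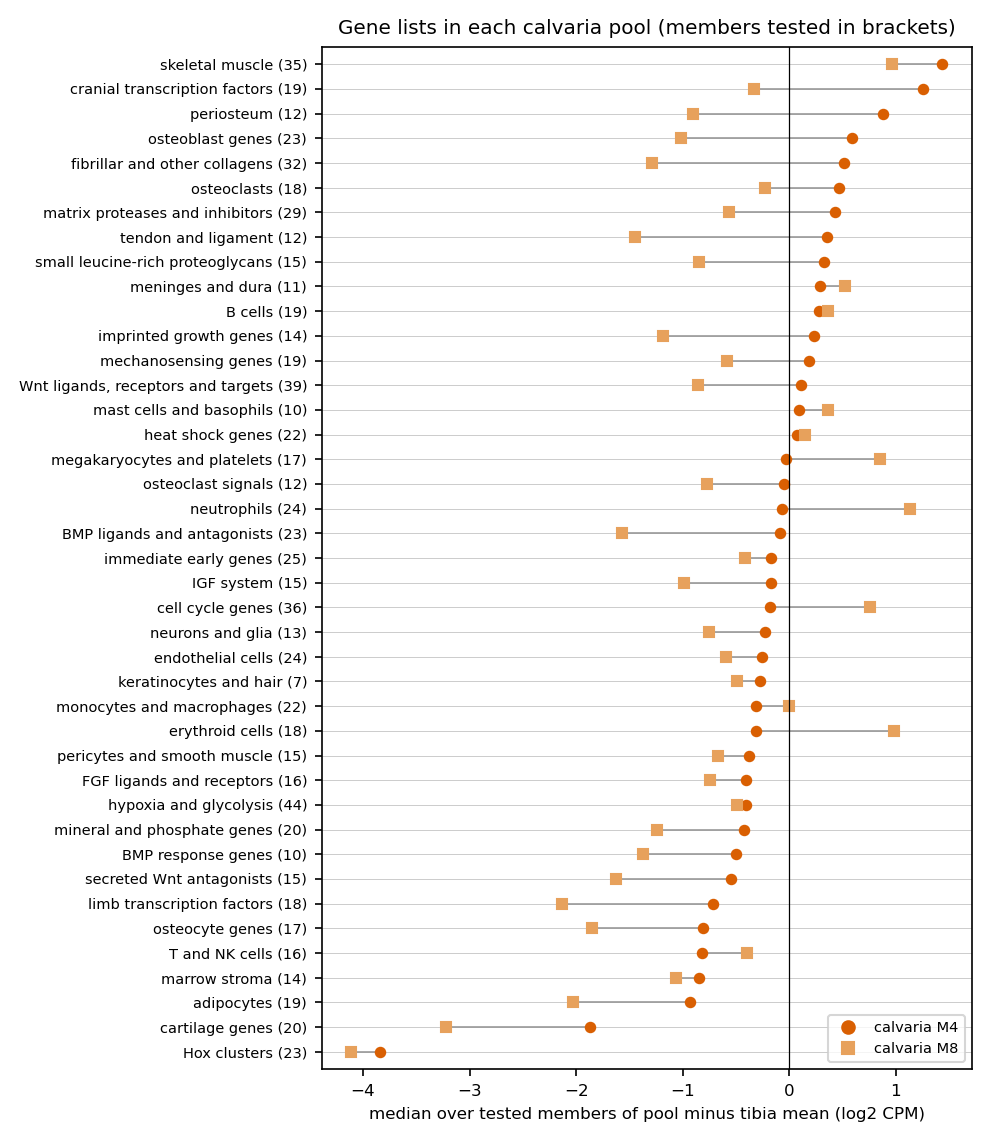
For each gene list the median over its tested members of the difference in log2 CPM from the tibia mean is plotted for calvaria M4 (circles) and M8 (squares). Hox, cartilage, adipocyte, marrow stroma and osteocyte lists lie below 0 in both pools, while periosteum, tendon, collagen and osteoblast lists lie above 0 in M4 and below it in M8.

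The genes in which the calvaria pools differed most were chosen among those with a mean of 10 CPM or more. Apart from Xist, the lowest in M8 relative to M4 included A2m, a protease inhibitor, with 30.5 CPM in M4, none in M8, 40.8 in M5 and 25.9 in M7. Trim12a, from a cluster of antiviral genes on chromosome 7, had 47.3, 0.0762, 46.0 and 51.0 CPM in M4, M8, M5 and M7, and its neighbor Trim5 had 36.3, 0.152, 48.7 and 42.0 CPM. In each of these M4 was close to tibia and M8 nearly empty. The same held for Gm7600 (99.2, 0.0762, 135 and 141 CPM), Rps13-ps2 (151, 0.762, 110 and 163 CPM), Gpr137b-ps (35.6, 0.229, 34.1 and 28.4 CPM) and Gm4581 (16.3, 0.0762, 25.7 and 23.2 CPM), several of them pseudogenes or predicted genes. Myl1, a muscle light chain, had 84.2, 0.533, 20.8 and 102 CPM.

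In the other direction Rps3a3, a ribosomal protein copy, had 1.29 CPM in M4, 1427 in M8, 1.47 in M5 and 2.05 in M7. Gm10036 had 0.836, 191, 0.339 and 0.684 CPM in M4, M8, M5 and M7, and Gm11223 had 17.4, 469, 12.8 and 14.6 CPM. These levels were high in M8 alone. Gdpd3, a phosphodiesterase, had 6.56, 186, 7.35 and 5.95 CPM, and Card9, an adaptor of innate immunity, 1.74, 41.1, 0.396 and 1.16 CPM. BC100530 (1.54, 128, 2.38 and 3.69 CPM), AA465934 (0.772, 40.2, 2.15 and 1.98 CPM), E030030I06Rik (3.60, 33.2, 2.66 and 2.94 CPM) and the neuropeptide gene Npy (2.64, 49.5, 4.13 and 5.13 CPM) had the same order. Myh4, a fast muscle myosin, differed from these, at 8.75 CPM in M4, 83.3 in M8, 95.2 in M5 and 340.5 in M7. None of these genes was called between the sites by the quasi-likelihood test. They were chosen for a gap between the calvaria pools, which widens the spread within a site, so the lack of calls largely follows from the choice. Of 479 tested genes placed on X none was among the 29 and 6 were among the exact test calls.

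Calls were also counted by whether a gene's symbol is found in the other species, with no test of the difference. The quasi-likelihood test called 16 of 7658 genes whose symbols are in both other tables (0.209%) and 13 of 7905 whose symbols are missing from at least 1 (0.164%). The exact test called 3.46% and 3.68% of them. Symbols found in neither table numbered 3046, of which the quasi-likelihood test called 3 (0.0985%) and the exact test 119 (3.91%). Beside Hoxa11os, these were 3110079O15Rik, with no reads in calvaria and 149 and 185 in M5 and M7 (adjusted p = 0.16 by edgeR's quasi-likelihood test), and the noncoding 9130019P16Rik, with 2.57 and 2.59 CPM in M4 and M8 and 17.8 and 32.2 CPM in M5 and M7 (log2 fold change -3.27 ± 0.39, adjusted p = 0.193). All 3 were higher in tibia. By level, calls spread from a mean of 4.12 to 995 CPM, and none of the 1070 tested genes under 1 CPM was among the 29.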

How the data were processed

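Poly(A)+ RNA of mouse calvaria and tibia was sequenced by the authors in 4 libraries. Per the study's methods reads were aligned with HISAT2 and counted with HTSeq-count on merged exons without strand, whereas the submitters' processing notes name BWA 0.7.10-r789, HTSeq, edgeR 3.16.5 and mm10. The raw counts deposited by the authors, not normalized by them, were used. The authors also deposited a normalized signal, each count times a constant per library, which no result here uses. Rows without a gene name, with 0.0258% to 0.0490% of the reads, were left out.

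The model was run in R 4.3.3 with the package edgeR 4.0.16 (TMM, glmQLFit and glmQLFTest, site as the single term, Benjamini-Hochberg adjustment over all tested genes). The common biological coefficient of variation was 0.317. Standard errors were taken as the absolute log2 fold change over the root of F. Differences of single pools used log2 CPM with 1 read added. Where a site had no reads, bounds use 3 reads per library. Where a site had 1 to 3 reads in all, the ratio has an exact 95% interval. DESeq2 1.42.0 and edgeR's exact and likelihood ratio tests were alternatives. The steps were tested on simulated data.

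Positions are those of GENCODE vM21 (GRCm38) by symbol, unique for 14116 genes. The members and the 41 gene lists were chosen with earlier results of these data known. Named genes are the 12 smallest p-values per direction among called genes without overlap, up to 4 called members per direction of each list or else its 2 members of highest CPM, 11 fixed bone and cranial genes, the 10 genes with the largest difference between M4 and M8 in each direction among those of 10 CPM or more, and called genes found in neither other table, up to 6 per direction. The other called genes were added so that all are named, and further genes beside a list's counts (Sfrp2, Dlx3, Col3a1 and Des) or among others were chosen after their values were seen. A gene that this rule names is not reported here.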

Additional observations from a re-analysis of the deposited data

How the results depend on the processing

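The limits are the number of pools, 2 a site, and the disagreement between M4 and M8. The count of 29 calls, 2 of them higher in calvaria, was 470 and 121 with DESeq2, 556 and 143 with edgeR's exact test, 621 and 183 with its likelihood ratio test and 510 and 159 with no filter on low counts. It was 4 and 0 at a false discovery rate under 0.05, 14 and 1 with a read required in every library, and 4 and 0 with 10 reads required in a library of each site. Leaving out 1 library gave between 3 and 7305 calls, of which 0 to 3463 were higher in calvaria. A replicate block for the assumed pairs M4 with M5 and M8 with M7 gave 67 and 10, and for the pairs M4 with M7 and M8 with M5 110 and 19. The pool deviations correlated across genes with r of 0.0213 and -0.0213, which with 2 pools a site does not show whether any pairing holds. By the Xist and Y-linked reads M8 shared its animals with neither M5 nor M7, so each block holds a pair that is not matched. All 29 genes were called again with other scaling factors, DESeq2, both other edgeR tests, no filter, either block, the correction for exonic length and with X and Y genes left out. With robust dispersions 28 were, without 9130019P16Rik. Uncalled genes turned sign with the library left out, over ranges in log2 fold change of -1.29 to 0.62 for Alpl, -0.53 to 0.62 for Bglap, -0.38 to 0.73 for Car2, -0.23 to 0.93 for Col1a1, -0.76 to 0.84 for Ctsk, -0.69 to 0.92 for Fgf23, -1.85 to 0.79 for Gdf10, -0.67 to 0.45 for Grb10, -0.39 to 0.52 for Lyz2, -0.50 to 1.02 for Mki67, -0.48 to 0.91 for Pdgfrb, -1.0005 to 1.21 for Prrx1, -0.50 to 0.12 for Runx2 and -1.03 to 0.50 for Tnc. With the length correction Alpl was 0.00078 and Bglap -0.042. The causes were not tested.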
